A study of Rattus norvegicus with 8 samples.

Results

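Hepatocyte identity rests on a small network of transcription factors, and 8 of them were followed here in adult rat liver: Hnf4a, Nr5a2, Foxa1, Foxa2, Foxa3, Cebpa, Onecut1 and Prox1. The members were taken by name. Each gene was represented by the probe with the highest mean liver signal among probes whose RefSeq accession belonged to that gene. All 8 had a probe with liver signal well above background on each of the 8 arrays, and they are 8 of the 10003 genes that could be named and passed the filter on dim probes (liver signal well above background on at least 4 of 8 arrays). Onecut1 was put forward because its level spread widely between arrays, so its spread is a description with no test.

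The AhR group held male Sprague-Dawley offspring, 78 to 86 days old, of dams dosed with mixed agonists of the AhR, the aryl hydrocarbon receptor. The mixture was made up of non-ortho PCBs, chlorinated dibenzodioxins and chlorinated dibenzofurans. The dose was 1.8 ng per kg per day in dioxin toxic equivalents, and exposure ran from gestation day 0 to postnatal day 20. The control group held male Sprague-Dawley offspring of the same ages whose dams had corn oil only. Offspring of both groups stayed with their birth mothers. Every array carried liver RNA pooled from 2 rats and labelled with Cy5, and a Cy3-labelled common reference, prepared from 14 rat cell lines per the labels, with 4 arrays per group and no dye swap. The labels do not say whether pools shared a litter, so p-values measure the spread between pools. The study's other arrays, 72 in all with a second age of 21 days, are not analysed here.

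HNF4A and NR5A2 are nuclear receptors, FOXA1, FOXA2 and FOXA3 are forkhead proteins that can bind compacted chromatin, and CEBPA is a leucine zipper protein. ONECUT1, also called HNF6, joins a cut domain to a homeodomain, and PROX1 is a homeodomain protein that can repress together with HNF4A or NR5A2. In liver these proteins bind each other's genes and the genes for plasma proteins, glucose production, bile acid synthesis and urea formation. ONECUT1 is known to bind and activate the Hnf4a and Foxa2 genes, and growth hormone is known to raise its mRNA in rat liver.

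The upstream stretches of Hnf4a and Foxa2 are shown because these are known ONECUT1 target genes within the network, and both are set against the wide spread of Onecut1 below. The letters ATTGAT, the core of the ONECUT motif, were searched on both strands (ATCAAT is the other strand) in the 250 bases before each start site of the RefSeq promoter table, assembly GRCr8. The table gave 6 promoters for 5 of the 8 members, namely Hnf4a with 2 start sites, Foxa2, Foxa3, Cebpa and Nr5a2. Of these, 1 promoter of Hnf4a and that of Foxa2 held the letters, while 7.10% of 33469 promoters in the table did. The first lies at chr3:172605970-172606219 on the plus strand, with its match 29 to 24 bases before the start site. The second lies at chr3:155927509-155927758 on the minus strand, with its match 136 to 131 bases before the start site. Both are written 5′ to 3′ on the strand of the gene, with the match in capitals. A match is a run of letters, not a shown binding site. The other Hnf4a promoter held no match, and which Hnf4a start site these livers used was not tested.
Hnf4a promoter 1: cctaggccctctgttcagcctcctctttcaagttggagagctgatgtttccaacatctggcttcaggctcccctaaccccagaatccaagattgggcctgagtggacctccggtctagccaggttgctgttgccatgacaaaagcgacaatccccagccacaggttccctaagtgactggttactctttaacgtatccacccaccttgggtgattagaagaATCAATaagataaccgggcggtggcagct
Foxa2 promoter: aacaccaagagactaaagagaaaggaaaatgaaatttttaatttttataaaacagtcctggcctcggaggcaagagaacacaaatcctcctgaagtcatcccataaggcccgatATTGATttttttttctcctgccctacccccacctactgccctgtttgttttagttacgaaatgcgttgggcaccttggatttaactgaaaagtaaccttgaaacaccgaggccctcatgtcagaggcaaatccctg

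The array values behind all results are log2 ratios of Cy5 (liver) over Cy3 (reference) after background correction and loess normalization within each array. A ratio compares arrays for the same gene and does not rank genes against each other. The arrays had median Cy5 signals of 159 to 232 units and local backgrounds of 71 to 76, no probe was saturated in Cy5, and all arrays sat on 1 slide with 1 scan. The 20 hepatocyte markers, albumin and apolipoprotein genes among them, were all above background on all arrays. Of 9 exocrine pancreas markers 6 were above background on no array, Prss1, Pnlip and Ptf1a among them, while 2 were above background on all arrays. In bulk liver RNA, fewer cells of a type and less RNA per cell cannot be told apart.

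Of the 8 factors, 4 had a higher and 4 a lower mean in AhR livers, and none passed the test. The median difference over the 8, AhR minus control, was -0.02 (log2), against -0.00 over all 10003 genes, of which 4947 were higher and 5056 lower. Limma with Benjamini-Hochberg adjustment called 0 of the 8 at an adjusted p of 0.05, where it called 0% of 17855 probes. At an unadjusted p of 0.05 it also called 0 of the 8, against 1.61% of all probes. The adjusted p was 1.00 for every member. Arrays of the groups did not overlap for 1 of the 8, Prox1, against 1.19% of all probes.

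**Figure D1:**
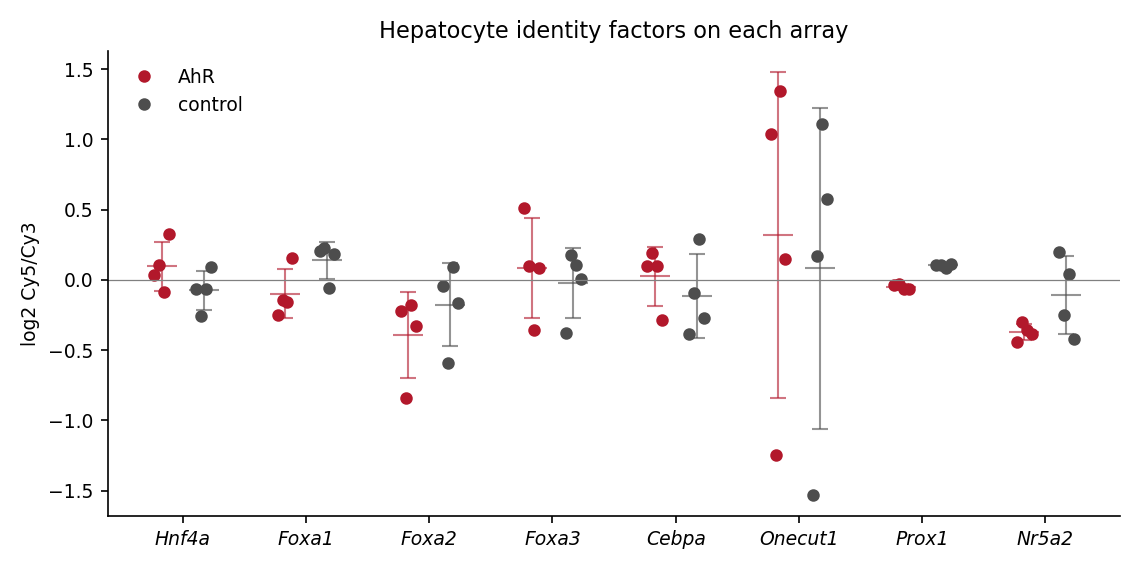
Log2 ratio of liver (Cy5) over reference (Cy3) for each of the 8 factors, with 1 point per array, AhR arrays left of control arrays, and the mean ± SD (n = 4) of each group as bars. Onecut1 runs from -1.53 to 1.34 and its groups overlap, while the 4 AhR arrays of Prox1, from -0.07 to -0.03, lie below its 4 control arrays, from 0.09 to 0.11.

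Neither nuclear receptor passed the test between the groups. Hnf4a, the receptor on which apolipoprotein and clotting factor genes depend, had log2 ratios of 0.03, 0.11, -0.08 and 0.33 on the AhR arrays, against -0.07, -0.25, -0.07 and 0.09 on the control arrays. The values overlapped, with AhR 4 the highest and control 2 the lowest. Its difference was 0.17 (SE 0.11, 95% interval -0.08 to 0.42, limma unadjusted p = 0.163, exact two-sided permutation p = 0.200). The interval allows between 0.945-fold and 1.34-fold of the control level.

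Nr5a2, known as LRH-1 and a regulator of bile acid synthesis genes, had log2 ratios of -0.44, -0.30, -0.35 and -0.38 on the AhR arrays, against 0.20, -0.25, 0.04 and -0.42 on the control arrays. All AhR arrays were close together, and the controls reached both above and into that range. The difference was -0.26 (SE 0.13, interval -0.56 to 0.03, limma unadjusted p = 0.0730, exact permutation p = 0.143). A second Nr5a2 probe, printed as 1 spot, gave a difference of -0.13 (SE 0.13). The probes correlated over the 8 arrays (r = 0.86, exact permutation p = 0.00871, rho = 0.64, p = 0.0962). Without the 2 arrays farthest from the median r was 0.29, so that the relation rests on those arrays.

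Among the forkhead factors, Foxa1, which opens liver enhancers during development, came nearest to a group difference. It had log2 ratios of -0.25, -0.14, -0.15 and 0.16 on the AhR arrays, against 0.21, 0.23, -0.06 and 0.18 on the control arrays. AhR 4 lay among the controls and control 3 lay below the other controls, so the groups overlapped. Its difference was -0.24 (SE 0.11, interval -0.49 to 0.01, limma unadjusted p = 0.0615, exact permutation p = 0.0571). The second Foxa1 probe had a difference of -0.12 (SE 0.20) and did not follow the first over the arrays (r = -0.10, exact permutation p = 0.804, rho = -0.24, p = 0.582). The Foxa1 values therefore depend on which probe is read.

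Foxa2, partner of Foxa1 in liver specification, was printed as 10 spots. Its log2 ratios were -0.22, -0.84, -0.18 and -0.33 on the AhR arrays, against -0.04, -0.59, 0.09 and -0.16 on the control arrays. The lowest array of each group, AhR 2 and control 2, stood below the other 3. The difference was -0.22 (SE 0.18, interval -0.61 to 0.17, limma unadjusted p = 0.246).

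Foxa3, the forkhead factor of liver that also acts on glucose genes, had log2 ratios of 0.51, 0.10, -0.35 and 0.08 on the AhR arrays, against -0.38, 0.17, 0.11 and 0.01 on the control arrays. The highest value was on AhR 1, AhR 3 and control 1 lay below the rest, and the groups overlapped. The difference was 0.11 (SE 0.18, interval -0.29 to 0.51, limma unadjusted p = 0.559).

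Cebpa, which drives genes of glucose production and the urea cycle, had log2 ratios of 0.10, 0.19, 0.10 and -0.29 on the AhR arrays, against -0.39, -0.09, 0.29 and -0.27 on the control arrays. The highest and the lowest value were both on control arrays. Its difference was 0.14 (SE 0.16, interval -0.21 to 0.49, limma unadjusted p = 0.395).

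Prox1, the homeodomain partner of HNF4A and NR5A2, had log2 ratios of -0.04, -0.03, -0.07 and -0.07 on the AhR arrays, against 0.11, 0.10, 0.09 and 0.11 on the control arrays. Every AhR array lay below every control array, as for 0.56% of all probes. The difference was -0.15 (SE 0.08, interval -0.32 to 0.02), with an exact two-sided permutation p of 0.0286, the smallest that 4 against 4 arrays can give. Limma, which draws the gene's SE towards those of all genes, gave an unadjusted p of 0.0763 and an adjusted p of 1.00. The groups also stayed apart under each of the 5 other ways of processing the signals, but the size of the difference depended on them. It was -0.44 with Agilent processed signals and -0.26 with a background offset of 10 in place of 50. The Prox1 probe was dim, with median Cy5 spot signals of 106 to 126.5 units, not far above the local background of the arrays. PROX1 is also known from lymphatic endothelium. The 9 measured markers of sinusoidal or lymphatic endothelium had a median difference of 0.09, with 8 higher and 1 lower in AhR. The summed Cy5 signal of the 10 such markers with a probe was 10852 to 17265 on AhR arrays and 9182 to 12779 on control arrays. Kupffer markers (9 higher, 1 lower), stellate (9 and 1) and cholangiocyte markers (7 and 2) were also mostly higher. Hepatocyte markers were 11 higher and 9 lower, and blood markers 2 and 5. Of all 10003 genes 4947 were higher. The part of endothelial cells in the Prox1 values was not tested.

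**Figure D2:**
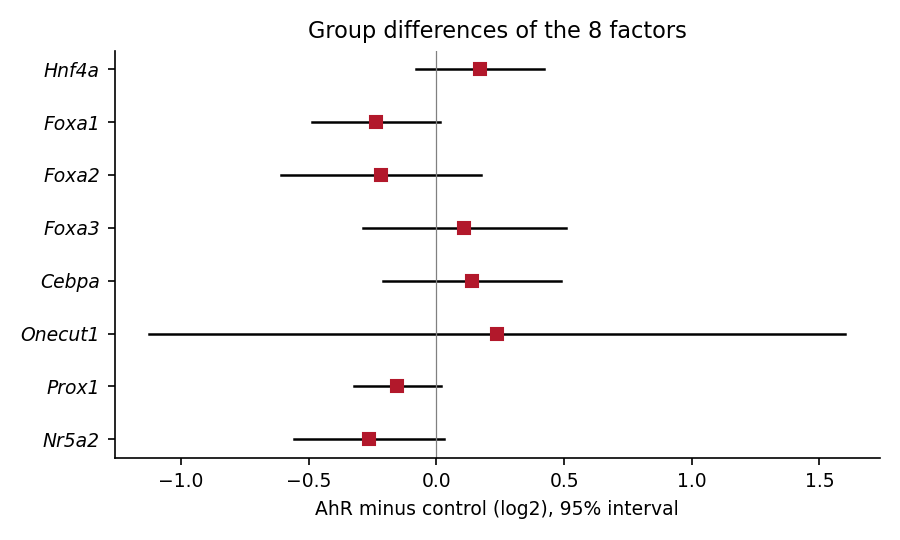
AhR minus control difference (log2) of each of the 8 factors with its 95% interval from limma. Every interval includes 0, that of Onecut1 runs from -1.12 to 1.60, and that of Prox1 from -0.32 to 0.02.

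Onecut1 spanned a wider range between arrays than the other 7 factors and did not pass the test between the groups. Its log2 ratios were 1.04, -1.24, 1.34 and 0.15 on the AhR arrays, against -1.53, 0.17, 1.11 and 0.58 on the control arrays. AhR 2 and control 1 were far below the other 6 arrays, so each group held 1 low array. The group difference was 0.24 (SE 0.62, interval -1.12 to 1.60, limma unadjusted p = 0.707, exact permutation p = 0.743). The interval allows between 0.459-fold and 3.03-fold of the control level. The difference was -0.30 without control 1, -0.10 without AhR 3, -0.00 without AhR 1 and 0.76 without AhR 2. On 1 row of the slide, which carried AhR 2, AhR 4, control 1 and control 3, Onecut1 averaged -0.55 in AhR and -0.21 in control livers. On the other row it averaged 1.19 in AhR and 0.37 in control livers.

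From the lowest to the highest array Onecut1 spanned 7.32-fold. Over the same arrays Foxa2 spanned 1.91-fold, Foxa3 1.86-fold, Cebpa 1.60-fold, Nr5a2 1.56-fold, Hnf4a 1.50-fold, Foxa1 1.39-fold and Prox1 1.13-fold. The span of Prox1, a dim probe, was 1.51-fold with Agilent processed signals. The SD between arrays of the same group was 1.15 (log2) for Onecut1, which ranked 5 of 10003 genes from the top. It was between 0.0154 and 0.306 for the other 7 factors, against a median of 0.169 over all genes. Foxa3, Foxa2 and Cebpa lay above most genes, with 89.8%, 89.1% and 82.4% of genes having a smaller SD. Nr5a2 (65.6%), Hnf4a (43.6%) and Foxa1 (42.9%) lay in the middle of the distribution. The SD of Prox1, 0.0154, was the lowest of all 10003 genes. It was also below the SD of 0.0691 between duplicate spots of Prox1 on the same array, and it was between 0.0279 and 0.0881 under the 5 other ways of processing.

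**Figure D3:**
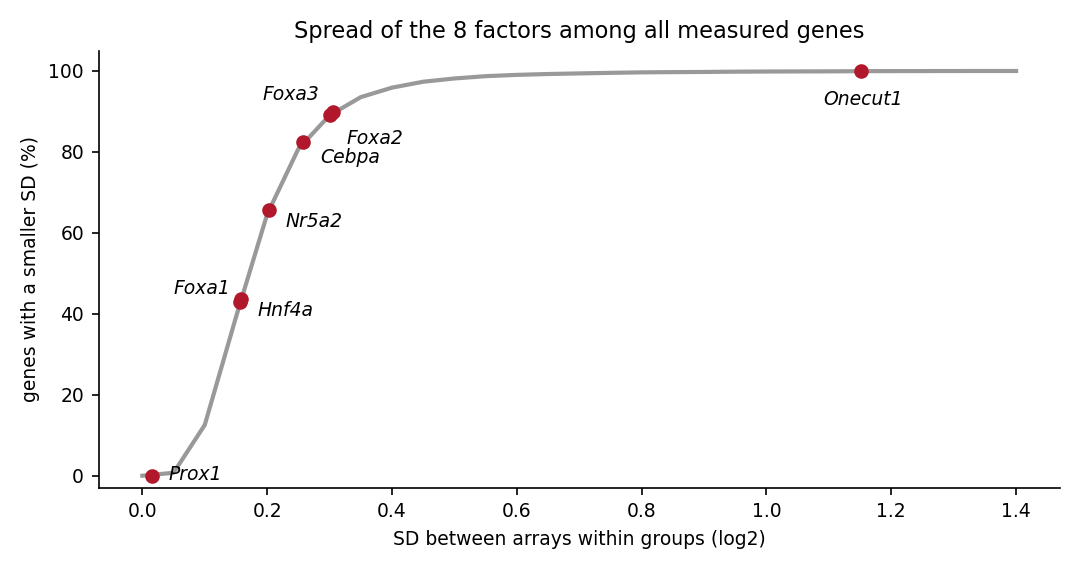
Share of the 10003 genes with a smaller SD, against the SD between arrays within groups (log2 units); the line is all genes and the points are the 8 factors. Onecut1 lies at 1.15, while the other 7 lie between 0.0154 and 0.306.

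The liver channel carried the spread of Onecut1. Its median Cy5 spot signals were 8695, 2727, 11787 and 3912 on the AhR arrays, against 1458.5, 4104, 9341 and 7403 on the control arrays, a span of 8.08-fold. The Cy3 signals of the same spots, from the shared reference RNA, ran from 2500.5 to 3412, a span of 1.36-fold. Duplicate spots of Onecut1 on the same array differed by an SD of 0.0561 (log2). The spread was thus seen in liver RNA, at signals well above background, and not between spots of an array. Onecut1 was read from 1 probe, so its spread was not checked with a second.

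**Figure D4:**
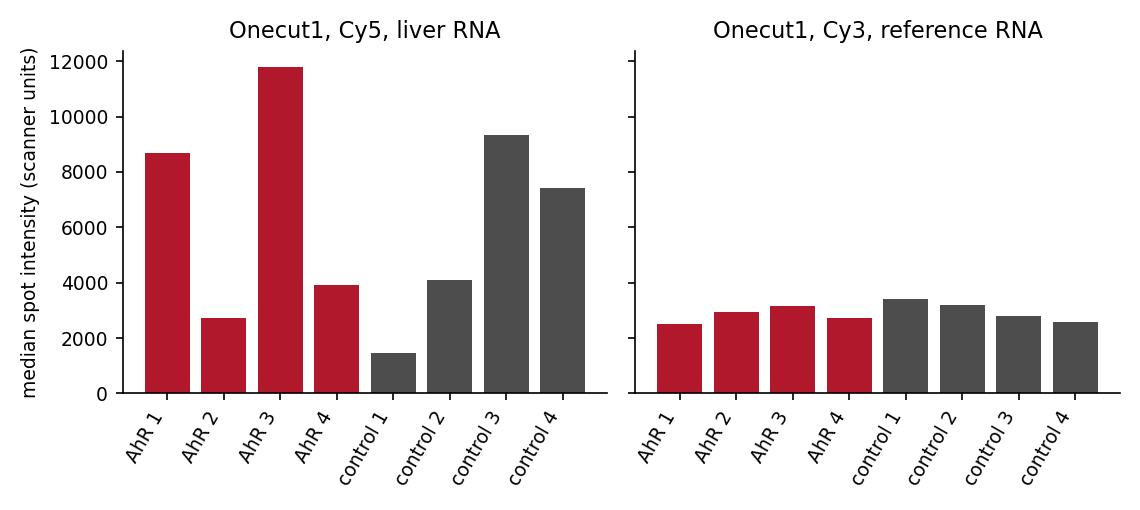
Median spot signal of Onecut1 on each array (linear axis, arbitrary scanner units) in the liver channel (Cy5) and in the reference channel (Cy3), AhR arrays left of control arrays. Cy5 spans 1458.5 to 11787, while Cy3 stays between 2500.5 and 3412.

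Among other liver-enriched factors few spread as widely as Onecut1, but their median SD was above that of all genes. Of 36 further factors measured out of 42 listed, 2 had a within-group SD over 1, and 30 had one under 0.5. The 2 were Nr0b2 (1.28), the small heterodimer partner that represses NR5A2 and HNF4A, and Bcl6 (1.13), a repressor known to be held down by growth hormone through STAT5. From the top, Nr0b2 ranked 2 and Bcl6 ranked 7 of 10003 genes by this SD. The median over the 36 was 0.231 (log2), against 0.169 over all 10003 genes, of which 95% had an SD under 0.375.

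No other factor passed a test of correlation with Onecut1 from array to array. With AhR 2 and control 1 apart from the rest, a correlation over all 8 arrays largely sets those 2 against the other 6. Over the 8 arrays Onecut1 had a Pearson r of 0.43 with Foxa2, 0.41 with Cebpa, 0.29 with Foxa3, -0.11 with Hnf4a, -0.20 with Prox1, -0.37 with Foxa1 and -0.44 with Nr5a2. The lowest exact permutation p of these 7 was 0.260, for Nr5a2, and the lowest adjusted p over all 28 pairs of factors was 0.786. Without AhR 2 and control 1 the r of Onecut1 was 0.21 with Nr5a2, its sign turned, and -0.25 with Prox1. For the other factors it was not computed with both of these arrays left out. Hnf4a and Foxa2, each with 1 promoter printed above, spanned 1.50-fold and 1.91-fold while Onecut1 spanned 7.32-fold. These are mRNA levels, and whether ONECUT1 acted on either gene in these livers was not tested. The pair with the lowest p was Foxa1 with Cebpa (r = -0.80, exact permutation p = 0.0312, rho = -0.62, p = 0.115, adjusted p = 0.786). Its r was -0.86 without the 2 arrays farthest from the Foxa1 median. The second Foxa1 probe had r = 0.80 with Onecut1 (exact permutation p = 0.0188, unadjusted), unlike the first.

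Onecut1 was next set against 44 genes of the growth hormone axis, of the circadian clock and of known ONECUT1 regulation, 37 of them measured. None passed at an adjusted p of 0.05 by exact permutation over these 37, and 6 had an unadjusted p under 0.05, where 10.7% of all 10002 other genes did. Bcl6 came nearest, in the opposite direction to Onecut1. Its log2 ratios were -0.96, 1.48, -0.76 and -0.76 on the AhR arrays, against 1.62, -0.20, -0.78 and -0.64 on the control arrays. Bcl6 was high on the same 2 arrays on which Onecut1 was low. Over 8 arrays r was -0.95 (exact permutation p = 0.00298, adjusted p = 0.0835) and rho was -0.83 (adjusted p = 0.269). Over the 6 arrays without AhR 2 and control 1, r was -0.61 (exact permutation p = 0.178), so that the relation was not shown within them.

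Igfals, which encodes the acid-labile subunit that carries IGF1 in plasma and is raised by growth hormone, ran in the direction of Onecut1. Its log2 ratios were 0.67, 0.18, 0.62 and 0.54 on the AhR arrays, against -0.04, 0.13, 0.58 and 0.45 on the control arrays. The lowest values were on control 1, control 2 and AhR 2. Over 8 arrays r was 0.88 (exact permutation p = 0.00451, adjusted p = 0.0835) and rho was 0.81 (adjusted p = 0.269), and over the 6 arrays r was 0.70 (exact permutation p = 0.0847). The other 4 with an unadjusted p under 0.05 were Cry2 (r = -0.79) and Nfil3 (0.77) of the clock, Socs2 (0.78), a STAT5 target, and Slc2a2 (-0.75), the glucose transporter of hepatocytes. Over the 6 arrays r was -0.02 for Socs2, 0.10 for Nfil3, 0.49 for Slc2a2 and -0.75 for Cry2. Cish, another STAT5 target, had r = 0.08 over the 8 arrays. The other measured growth hormone axis genes ran from r = -0.57 for Hsd3b5 to 0.51 for A1bg. Among them were Cyp2c13 (-0.57), Cyp2c11 (0.06), Ghr (0.18) and Igf1 (0.47). The part of growth hormone in the spread of Onecut1 was not tested.

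**Figure D5:**
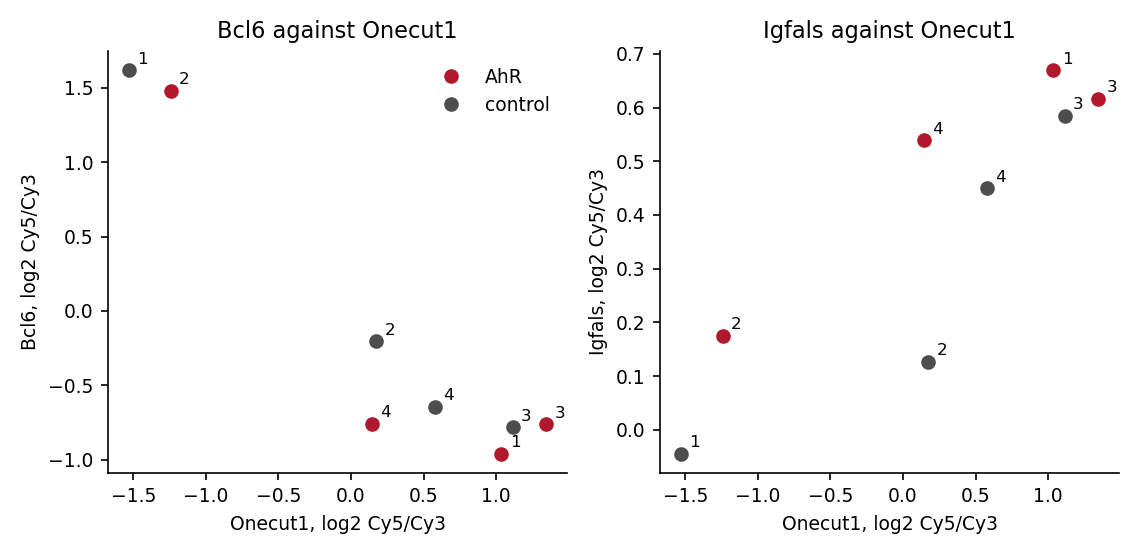
Log2 ratio of Bcl6 and of Igfals against that of Onecut1, with 1 point per array, coloured by group. AhR 2 and control 1 lie at the left, at -1.24 and -1.53 in Onecut1, where Bcl6 is 1.48 and 1.62 and Igfals 0.18 and -0.04.

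The clock output gene Dbp, which varied most of all 10003 genes (SD 1.32), had r = -0.25 with Onecut1 over the 8 arrays. Bmal1, a core clock activator, had r = 0.42. Both signs turned without AhR 2 and control 1. There r was 0.61 for Dbp (exact permutation p = 0.200) and -0.78 for Bmal1 (exact permutation p = 0.0736). Nr0b2 had log2 ratios of 0.70, 1.34, -1.78 and 1.06 on the AhR arrays, against 1.13, -1.47, -0.82 and -0.77 on the control arrays. Over all 8 arrays its r with Onecut1 was -0.67. Nr0b2 was high on both arrays that were low in Onecut1, and also on AhR 1 and AhR 4, where Onecut1 was not low. The groups overlapped for Nr0b2, with a difference of 0.81 (SE 0.69, limma unadjusted p = 0.261).

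The genes whose pattern was most like that of Onecut1 were chosen by Pearson r over the 8 arrays with group means removed, among the 5000 other genes with an SD above the median. In the same direction they were Git1 (0.99), Zfp787 (0.98), Eif1 (0.98), Birc2 (0.96) and Gatad2a (0.95). In the opposite direction they were Sowahc (-0.99), Etaa1 (-0.99), Mpc1 (-0.96), Ift74 (-0.96) and Eva1a (-0.95). These are extremes among 5000 genes over 8 arrays. Of all 10002 other genes 5.60% reached an r of 0.8 and 1.17% an r of 0.9 in either direction. Eif1, a translation initiation factor, spanned 0.75 and Mpc1, a subunit of the mitochondrial pyruvate carrier, 0.53 (log2) between the lowest and highest array, against 2.87 for Onecut1.

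Markers of other liver cells were compared with Onecut1 in the same way, with signal and spot quality, 12 array measures in all. The mean log2 ratio of 10 Kupffer cell markers was -0.02, -0.23, 0.38 and -0.27 on the AhR arrays, against -0.87, 0.13, 0.13 and -0.11 on the control arrays. It correlated with Onecut1 at r = 0.83 (exact permutation p = 0.00365, adjusted p = 0.0438) and rho = 0.83 (adjusted p = 0.185). Over the 6 arrays without AhR 2 and control 1, r was 0.66 (exact permutation p = 0.161). All 10 markers were above background on all arrays, and their summed Cy5 signal was 55956 to 107303 on AhR arrays and 42110 to 86367 on control arrays. The adjusted p was 0.158 with median centring. With 1 array left out it was 0.00952 without control 2 and between 0.0619 and 0.515 without any of the other 7, so that the call was lost in those 7. The part of these cells in the spread of Onecut1 was not tested. The hepatocyte marker mean had r = -0.00 with Onecut1, the cholangiocyte marker mean -0.34 and median Cy3 -0.68, and none of the other 11 measures passed.

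No gene downstream of the factors passed the adjusted test between the groups. Of 24 measured genes known to be regulated by HNF4A, 8 were higher and 16 lower in AhR, with a median of -0.03, and the smallest unadjusted p belonged to Apoc2 (0.30), Otc (-0.20) and Slc10a1 (-0.29). Of 13 CEBPA-regulated genes 7 were higher and 6 lower, with a median of 0.04. Hamp, which encodes hepcidin, differed by 0.68 (SE 0.17, limma unadjusted p = 0.00201, adjusted p = 1.00) and its groups did not overlap, while Otc differed by -0.20 and Alb by -0.20. Of 11 FOXA-regulated genes 4 were higher and 7 lower, with a median of -0.05, and Afp (-0.19), Alb (-0.20) and G6pc1 (0.22) led by p. Limma called 0 genes of these lists at an adjusted p of 0.05, and 1, Hamp, at an unadjusted p of 0.05.

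Of 11 ONECUT1-regulated genes 5 were higher and 6 lower in AhR, with a median of -0.01. Among those of smallest p were Hnf4a (0.17) and Foxa2 (-0.22). From array to array Pfkfb1, a known ONECUT1 target of glycolysis control, had r = -0.29 with Onecut1, Ttr -0.30 and Cyp7a1 -0.52. Of 9 measured genes regulated by NR5A2 or repressed with PROX1, 3 were higher and 6 lower, with a median of -0.02, and Abcg5 (-0.59), Nr0b2 (0.81) and Apom (-0.12) led by p. Of 12 measured cofactors of 17 listed, 6 were higher and 6 lower, with a median of 0.00, with Nr0b2 and Cebpb (-0.12) among those of smallest p. None of these passed at an adjusted or at an unadjusted p of 0.05.

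The 36 other liver-enriched factors split into 18 higher and 18 lower, with a median of 0.00, and Esrra (0.15) and Nr0b2 were among those of smallest p. Of 17 measured growth hormone axis genes 10 were higher and 7 lower, with a median of 0.03. Stat5a, a signal transducer of the growth hormone receptor, differed by -0.29 (SE 0.12, limma unadjusted p = 0.0361, adjusted p = 1.00), followed by Cyp2c11 (0.26) and Igfals (0.22). Of 12 measured clock genes of 18 listed, 7 were higher and 5 lower, with a median of 0.05, led by Tef (0.48), Npas2 (-0.38) and Bmal1 (-0.52). Limma called 0 genes of these lists at an adjusted p of 0.05 and 1, Stat5a, at an unadjusted p of 0.05. Across all 10003 genes 162 had an unadjusted p under 0.05.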

How the data were processed

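Per the file headers, the scanner software was Agilent Feature Extraction 10.7.3.1. Its deposited output gave the intensity values used here, which are median pixel brightness of spots and of local background. It also gave processed intensity values, used as an alternative, and a deposited log10 ratio, not used here. The authors also deposited a table of log2 ratios, whose normalization is not given in the sources used here. Regressed on the scanner values over probes, its columns had slopes from 1.02 to 1.04 and correlations from 0.990 to 0.994. They ran as Cy5 over Cy3, with medians from 0.00569 to 0.0165.

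Background was corrected by normexp (offset 50) and dye bias by loess within arrays (limma 3.58.1, R 4.3.3), with control and flagged spots at weight 0. Of 62976 spots, 4259 were controls, and the rest formed 30367 probes, of which 17855 had Cy5 well above background on at least 4 of 8 arrays. RefSeq accessions, matched without versions to the GRCr8 gene table, named 18004 probes and 11654 of those kept. The number of arrays, 4 per group, limits the precision, and so does low signal for dim probes. Between the most alike arrays the differences over probes had an SD of 0.247 (log2), so no array was a copy of another.

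Groups were compared with limma (lmFit, eBayes, Benjamini-Hochberg over all kept probes) and exact two-sided permutation over arrays. Correlations used exact permutation of pairings, adjusted within the 28 member pairs, the 37 listed genes or the 12 array measures. The procedure was tested on simulated data. Alternatives covered the background correction, offset, normalization, channel, filter, value table, other probes, replicate number, slide row and each array left out. The members and the gene lists were chosen with earlier results of these data known. All members were named, with the 3 genes of smallest p in each list, the 5 genes most like Onecut1 in each direction, and Dbp, Bmal1 and Nr0b2. A few genes that this rule names are not reported here. Igfals, Bcl6, Socs2, Cish and the other single genes set against Onecut1 were picked after their values were seen.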

Additional observations from a re-analysis of the deposited data

Results flagged for a closer look

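Foxa1 on control 3 had a log2 ratio of -0.0575, below the other 3 control arrays, which lay between 0.18 and 0.23. Its gap to them was large for a group of 4 (Dixon's criterion at 95%). It was the only such value among 42 groups tested, and chance alone gives about 1 in 20. The second Foxa1 probe read 0.61 on the same array, among its highest values.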

How the results depend on the processing

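Limma called 0 probes and 0 of the 8 factors at an adjusted p of 0.05 under every alternative run, with 172 to 392 probes at an unadjusted p of 0.05 under the other ways of processing. The median difference over the 8 factors, -0.02, ran from -0.16 to 0.01 with 1 array left out and from -0.11 to 0.03 otherwise. Differences kept their sign for Hnf4a, Foxa1, Prox1 and Nr5a2 under every alternative run for them, but sizes moved. Without AhR 4 Hnf4a was 0.09 and without control 2 0.11. Without AhR 2 Foxa2 was -0.07, without control 2 -0.36 and without control 3 -0.13. Cebpa was 0.05 to 0.27, over 1.5 times from 0.14 without AhR 2, AhR 4, control 1, control 3 or control 4. Without control 1 Nr5a2 was -0.16. Foxa3 was 0.26 without AhR 3 and 0.17 without control 2. Within the second slide row the difference of Foxa2 was 0.18 and that of Foxa3 -0.0129, and within the first that of Cebpa was -0.000175 and that of Onecut1 -0.34. With 1 array left out, Foxa3 ran from -0.0337 to 0.26 and Onecut1 from -0.30 to 0.76. The sign turned for Foxa3 without AhR 1 or control 1, and for Onecut1 without AhR 1, AhR 3 or control 1. No gene passed the adjusted test in any of these. The SD of Onecut1 stayed between 0.947 and 1.26 under the 5 other ways of processing and with each array left out. The SD of Foxa1 was 0.351 with its other probe. The SD of Prox1 was 0.0881 with Agilent processed signals, 0.0279 with an offset of 10, 0.0400 with median centring, 0.0401 with Cy5 alone and 0.0398 in the value table, and the cause was not tested. The correlation of Onecut1 with Hnf4a was 0.17 with median centring, and that with Foxa1 was 0.80 with the other Foxa1 probe. With 1 array left out, the correlations of Onecut1 ranged from -0.31 to 0.0152 with Hnf4a, 0.0330 to 0.89 with Foxa2, -0.14 to 0.68 with Foxa3, 0.0796 to 0.80 with Cebpa, -0.44 to 0.0794 with Prox1 and -0.74 to 0.11 with Nr5a2. The sign turned without control 1 for Foxa3, Prox1 and Nr5a2, and without AhR 2 for Hnf4a. Past an unadjusted p of 0.05 were Foxa2 without control 1, Cebpa without AhR 2 and Nr5a2 without control 3. The correlation with the Kupffer marker mean, alternatives chosen after seeing the data, was 0.81 with median centring, 0.82 with Cy5 alone and 0.83 in the value table, with adjusted p of 0.158, 0.0854 and 0.0515. It was 0.69 to 0.91 with 1 array left out, past an adjusted p of 0.05 only without control 2. Bcl6 kept an r of -0.98 to -0.86 and Igfals 0.74 to 0.95.

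Same-numbered AhR and control arrays did not deviate together (r of 0.00, -0.06, 0.05 and -0.37 across probes, and 0 of 4 closest to its own number). No pairing by number was thus seen, and the labels do not say whether the numbers pair the pools. With replicate number as a block, 0 probes passed. The difference of Onecut1 was 0.24, as it must be without the block, because every number holds an array of each group. Signal over background limits what can be read from Prox1.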
